A study of Drosophila melanogaster with 6 samples.

Results

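The chromatin regions described here are stretches of the Drosophila melanogaster genome (build dm6) that were open in midgut progenitors of every sample and lay away from protein-coding genes. They were chosen by their calls: overlapping ATAC-seq peaks (1 bp or more) of the 6 peak lists were merged, and a region was kept if all 6 lists called it, if it was on arm 2L, 2R, 3L, 3R or X, and if its whole interval lay more than 500 bp from any protein-coding gene body. This gave 391 regions of the 4247 that all 6 lists called on those arms, and of 11453 regions in all. Being called in every sample is therefore how the regions were chosen and not a result. ATAC-seq reads accessibility from where the Tn5 transposase can insert sequencing adapters into chromatin.

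Cells came from 2 groups of 3 samples (A, B and C in each). H1 RNAi flies carried esgts, UAS-GFP and the UAS transgene H1 RNAi 1, and control flies carried esgts, UAS-GFP without it. All were females, 3 days old when they were placed at 18 °C for 2 days, then moved to 29 °C on poor food, where RNAi ran for 4 days. The temperature-sensitive escargot driver works in intestinal stem cells (ISC) and in enteroblasts (EB), their committed daughters, so each sample is a mixture of both. Each sample pooled 50000 to 100000 GFP-positive cells sorted from 70 guts, and p-values over samples measure the spread between such collections. Depletion of H1 could not be checked in these files, which hold no RNA.

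Open chromatin far from genes usually marks enhancers, silencers and insulators, or the promoters of genes that make no protein, such as those of microRNAs (miRNAs), long non-coding RNAs (lncRNAs) and tRNAs. Enhancers bind transcription factors and can act on a gene across a long distance, so the nearest gene is only a landmark and need not be the gene that is regulated. Linker histone H1 binds where DNA enters and leaves the nucleosome and compacts the chromatin fibre. In the fly midgut, escargot, Notch signalling, JAK/STAT cytokines and a set of zinc-finger factors decide whether a progenitor stays a stem cell or becomes an absorptive enterocyte or a hormone-secreting enteroendocrine cell.

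The H1 RNAi lists held 6564, 9827 and 7261 peaks and the control lists 6142, 10872 and 8602. The background that the peak caller used, in fragments per base, was 4.83 to 8.28 in H1 RNAi samples and 5.04 to 20.7 in controls, which follows depth in part. Of 12 progenitor genes, 9 to 11 were open at an end of the gene in H1 RNAi samples and 11 or 12 in controls, and escargot, Notch, Sox21a and klumpfuss were so in all 6. Delta was so in 1 of 3 H1 RNAi samples and in 3 of 3 controls. Of 25 enterocyte and gut-region genes the counts were 19 to 22 in H1 RNAi samples and 18 to 22 in controls. The enterocyte genes nub and GATAe were open at an end in all 6. Of 24 enteroendocrine genes 5 to 7 were open in H1 RNAi samples and 6 to 9 in controls, with pros open in 1 H1 RNAi sample and 2 controls. Of 12 neuronal genes, 2 to 5 were open in H1 RNAi samples and 3 or 4 in controls, among them elav in all 6. In contrast, nSyb was open in 0 samples of either group, and brp in 1 H1 RNAi sample and 0 controls. Of 14 visceral muscle genes the counts were 3 to 5 in H1 RNAi samples and 2 to 5 in controls, with Mef2 open in all 6. Of 10 hemocyte genes they were 3 and 3 to 5, and of 8 fat body genes 1 or 2 and 0 to 3. The hemocyte gene Hml and the fat body gene Lsp2 were each open in 0 H1 RNAi samples and 1 control. A peak at a gene end does not show that the gene is transcribed, and the part of other cells in the calls was not tested.

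Strength is given as a percentile: within each list, the 4247 shared regions were ranked by the −log10 q of their strongest peak, as the authors' peak caller gave it, and 100 is the strongest. The same regions were ranked in every list, so the lists' lengths do not set the scale. They do enter the choice of regions, since all 6 lists must call one. With lists of equal length there were 339 shared intergenic regions in place of 391. The lowest of a region's 6 percentiles shows how strong it was in the list where it was weakest.

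The 391 regions lay at a wide range of distances from genes. Their median distance to the nearest protein-coding gene was 4119 bp, with a range of 539 to 555514 bp. There were 271 more than 2000 bp away, 100 more than 10000 bp away and 7 more than 50000 bp away. The merged interval had a median width of 770 bp (238 to 3066 bp), and 62 were under 500 bp wide. Summits fell close together: the 6 strongest summits of a region spanned a median of 108 bp, and 185 regions kept them within 100 bp. A single peak in each list made up 313 regions.

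All 5 arms held such regions at similar density. Per megabase free of protein-coding genes there were 11.5 on 2L, 9.43 on 2R, 11.8 on 3L, 11.4 on 3R and 9.21 on X. Arm 3L had the most, 109, and X the fewest, 51. Intergenic regions were shared by all samples less often than regions near genes, since 391 of 1393 (28.1%) were called in all 6 lists against 3856 of 10060 (38.3%) within 500 bp of or inside a gene. A call in 1 list only made up 33.5% of intergenic regions, against 20.9% of the others. These shares describe the choice itself and were not tested.

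The 10 regions with the highest lowest percentile had 94.0 or more in each of the 6 lists. The first lay at chr3R:7474321-7475392 over snRNA:7SKa, a gene of the 7SK RNA, which holds the elongation kinase P-TEFb in an inactive complex. It ranked at percentiles 97.7, 98.3 and 99.8 in H1 RNAi A, B and C, and at 99.9, 99.9 and 99.8 in the controls. All H1 RNAi samples lay below all controls by a small margin (limma adjusted p 0.201). Its nearest protein-coding gene, CG1142, was 540 bp away, so it only just met the distance rule.

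A further region of this rank lay at chr2L:15315388-15317072, 882 bp from nht, a testis-specific TAF subunit, and 16794 bp from escargot, the zinc-finger repressor that keeps progenitors undifferentiated. Its percentiles were 95.8, 98.0 and 99.5 in H1 RNAi samples and 99.6, 99.98 and 99.95 in controls. All H1 RNAi samples lay below all controls, at a limma adjusted p of 0.12. Within 50000 bp of escargot there were 2 others, at chr2L:15302609-15303802 and chr2L:15378785-15380038, with lowest percentiles of 12.7 and 25.5.

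Genes of differentiation and of the body plan stood next to other strong regions. At chrX:4612336-4613034, 4530 bp from peb (pebbled, also called hindsight), a zinc-finger factor needed for enterocyte differentiation, the percentiles were 97.9, 99.5 and 99.4 in H1 RNAi samples, against 97.1, 96.0 and 97.1 in controls. A region at chr3R:16763797-16764348 lay in bxd, a lncRNA gene of the bithorax complex, with 99.4, 98.8 and 99.6 in H1 RNAi samples and 98.1, 95.1 and 99.5 in controls. The first pair of groups did not overlap and the second did. The region 2244 bp from Eaf6, a subunit of histone acetyltransferase complexes, and 19891 bp from Blimp-1, an ecdysone-induced repressor, had a lowest percentile of 94.0. One 4666 bp from 18w, a Toll-family receptor, had 95.2, and one 9505 bp from Reg-2 in lncRNA:CR42719 had 95.1. The remaining 3 lay nearest CG11629, CG11550 and Prat2, an enzyme of purine synthesis.

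**Figure D1:**
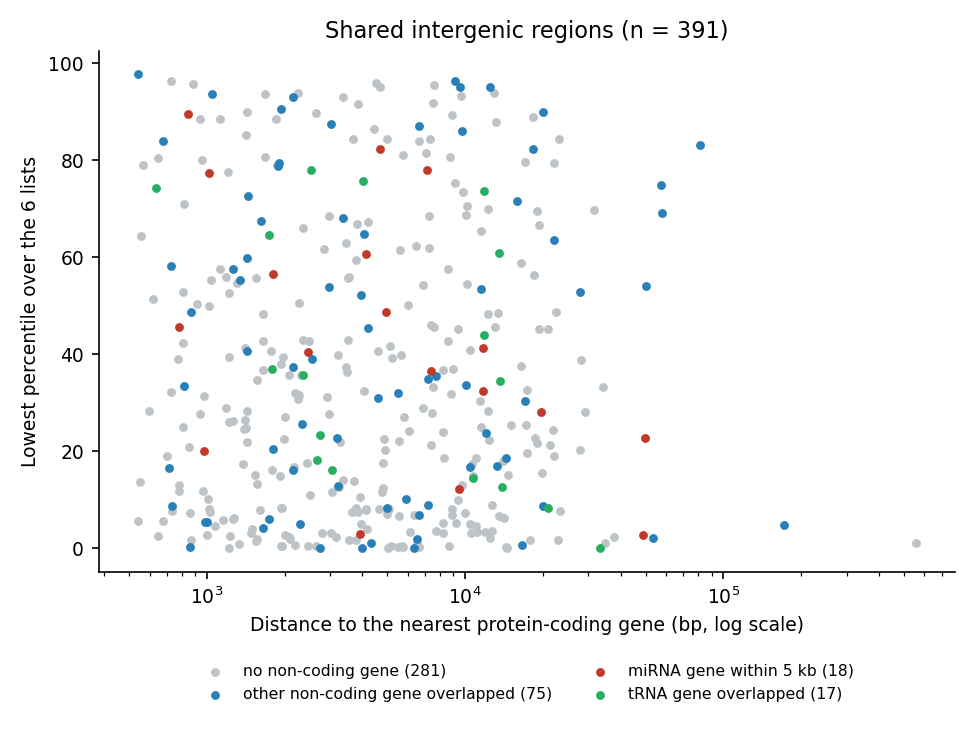
Each point is 1 of the 391 shared intergenic regions, with its distance to the nearest protein-coding gene in bp (log axis) and its lowest percentile over the 6 lists. Colours mark regions over a tRNA gene (17), regions within 5000 bp of a miRNA gene (18), regions over another non-coding gene and the rest. Strong and weak regions occur at short and long distances alike.

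Genes that make no protein covered 108 of the 391 regions (27.6%, exact 95% binomial interval 23.2 to 32.3%), against 144 of the 1002 intergenic regions called in 1 to 5 lists (14.4%, 12.3 to 16.7%). Those 1002 were narrower, with a median merged width of 314.5 bp against 770 bp, and a wide interval meets more genes. By the midpoint alone, 67 (17.1%) of the 391 and 111 (11.1%) of the 1002 lay in a non-coding gene. The intervals cover counting error only, and regions of one locus are not independent. By type, 85 regions overlapped a lncRNA gene, 17 a tRNA gene, 3 a snoRNA gene, 3 a miRNA gene, 2 an rRNA gene and 1 an snRNA gene. The 85 over a lncRNA gene had a median lowest percentile of 40.4, and the 283 over no non-coding gene 26.5. These sets were also formed by the interval, and the part of width in this difference was not tested.

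MiRNA genes lay beside several strong regions. MiRNAs are short RNAs that repress messenger RNAs, and several have known roles in these cells. Within 5000 bp of a miRNA gene lay 18 regions (4.60%), against 16 of the 1002 called less widely (1.60%), and counted from the midpoint the numbers were the same. Not all of the 18 were strong. Their lowest percentiles had a median of 40.8, against 30.4 over all 391, and went down to 2.68 at a region near mir-276a. The gene of mir-282 was covered by chr3L:3249890-3251370, which had percentiles of 92.2, 96.0 and 94.9 in H1 RNAi samples and 93.4, 91.9 and 89.6 in controls. That of mir-14, a suppressor of cell death, was covered by chr2R:9552273-9554398, with 79.1, 72.3 and 75.2 in H1 RNAi samples and 74.9, 72.8 and 60.7 in controls. The groups overlapped at both.

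The third region over a miRNA gene, chr3R:6809522-6810511, covered mir-10, which lies in the Hox cluster between Dfd and Scr. It had 78.1, 91.4 and 84.5 in H1 RNAi samples, against 96.1, 91.4 and 90.6 in controls. Its 6 summits fell within 10 bp, the smallest span of the 391 regions. Another strong region, chr3R:29213576-29215498, lay 87 bp from mir-279, which acts on JAK/STAT signalling, and had 91.4, 92.4 and 94.8 in H1 RNAi samples and 87.8, 82.5 and 91.6 in controls.

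Regions also lay beside miRNAs studied in the midgut. The pair next to mir-8, which represses escargot as enteroblasts mature, lay at chr2R:16828770-16829419 and chr2R:16830221-16831003 in the host gene lncRNA:CR43650. The one 2013 bp from mir-8 had 77.4, 81.2 and 84.6 in H1 RNAi samples and 90.5, 78.7 and 83.9 in controls. At the one 429 bp away the percentiles were 41.1, 44.7 and 40.4 in H1 RNAi samples and 85.2, 51.0 and 46.7 in controls. All H1 RNAi samples were below all controls at this second one, but its limma adjusted p was 0.345. Near mir-275, whose cluster partner mir-305 is known from stem cell self-renewal, chr2L:7423515-7425574 had 72.7, 71.5 and 61.4 in H1 RNAi samples and 66.3, 59.0 and 45.7 in controls. Those groups overlapped.

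**Figure D2:**
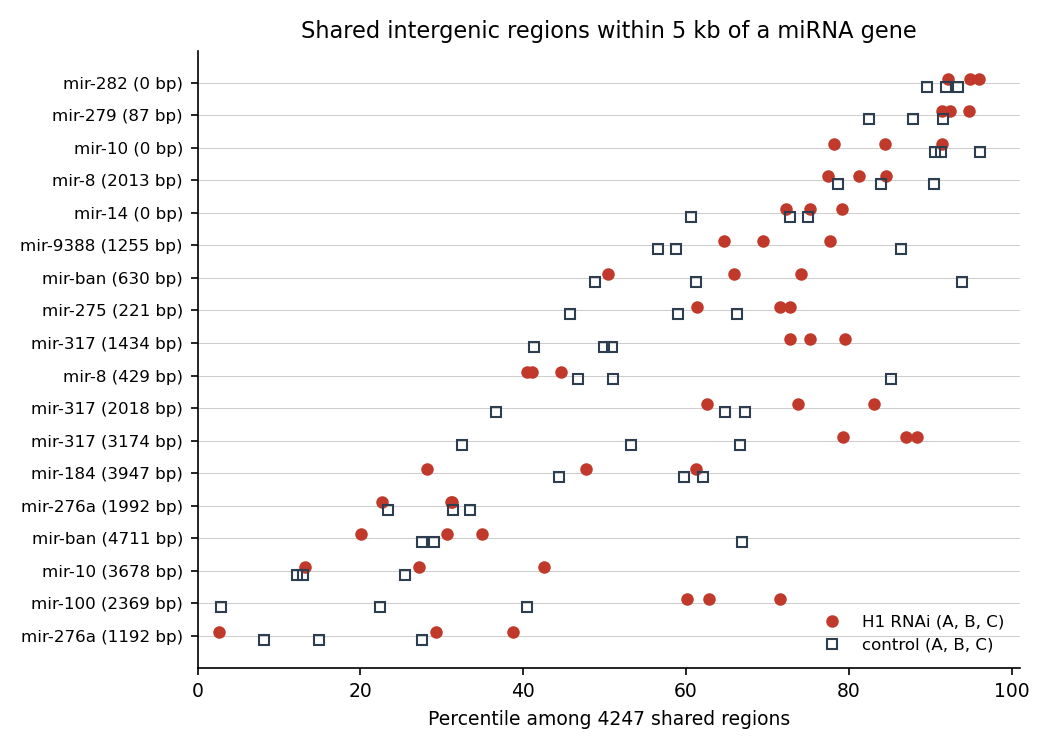
Percentile (x axis, 100 strongest) of the 18 shared intergenic regions within 5000 bp of a miRNA gene, 1 row per region with the miRNA and the distance in bp. Filled circles are the H1 RNAi samples and open squares the controls. The regions near mir-282 and mir-279 lie highest. All H1 RNAi samples lie to the right of all controls at 3 (16.7%, against 14.7% of all shared regions). These are the mir-100 region and those 3174 and 1434 bp from mir-317. They lie to the left at 1, the region 429 bp from mir-8 (5.56%, against 13.0%).

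Gaps between neighbouring protein-coding genes that hold a miRNA gene contained a shared intergenic region more often than other gaps. Counting gaps over 1200 bp, 16 of 46 with a miRNA gene (34.8%) held at least 1, against 244 of 3165 without (7.71%). The densities were 35.4 and 9.12 per megabase of gap. The shares also differed among gaps of like length: among gaps of 20000 to 50000 bp the shares were 6 of 13 with and 85 of 382 without a miRNA gene, and among gaps of 10000 to 20000 bp they were 5 of 11 and 68 of 486. No test was run, since these counts were set up after seeing the data.

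In all, 263 gaps held the 391 regions. A single region stood alone in 195 of them, and 38 gaps with 3 or more held 136 regions (34.8%). The gap between Or67d, an odorant receptor gene, and CG12362 held 6 regions over 138193 bp, all of them in lncRNA:CR46006, with mir-276a and mir-276b in the same gap. Their lowest percentiles ran from 2.14 to 74.9. None of the 6 had groups that did not overlap.

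The gap between Alp13, an alkaline phosphatase, and Fmr1, the RNA-binding fragile X protein, also held 6, over 26046 bp, together with the clustered miRNAs mir-317, mir-277 and mir-34, of which mir-34 is known from ageing in the fly brain. All 6 ranked higher in H1 RNAi samples on average, and at 5 of them every H1 RNAi sample lay above every control. Over all 4247 shared regions, 1994 ranked higher on average and 14.7% had every H1 RNAi sample above every control. At chr3R:10087130-10087952 the percentiles were 88.3, 87.0 and 79.3 in H1 RNAi samples and 66.6, 53.2 and 32.5 in controls (limma adjusted p 0.0896). At chr3R:10081689-10082224 they were 47.5, 40.4 and 57.3 in H1 RNAi samples and 16.0, 19.7 and 6.92 in controls (adjusted p 0.0712). No region of this gap passed an adjusted p of 0.05, and regions of a gap share their surroundings.

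Gaps with 5 regions lay beside Su(z)2, a Polycomb-group relative of Psc, and beside hry (hairy), a basic helix-loop-helix repressor. In the Su(z)2 gap, chr2R:13015400-13016109 ranked highest, with 99.1, 99.0 and 97.6 in H1 RNAi samples and 91.8, 99.5 and 97.2 in controls. In the hry gap, chr3L:8699654-8700718 did, with 89.1, 93.9 and 91.1 in H1 RNAi samples and 89.7, 93.8 and 93.6 in controls. Another 10 gaps held 4, including those next to peb, tara, Eip93F and hid, a pro-apoptotic gene. The gap beside shg, which encodes E-cadherin, and that beside upd2, a JAK/STAT cytokine, held 3 each.

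**Figure D3:**
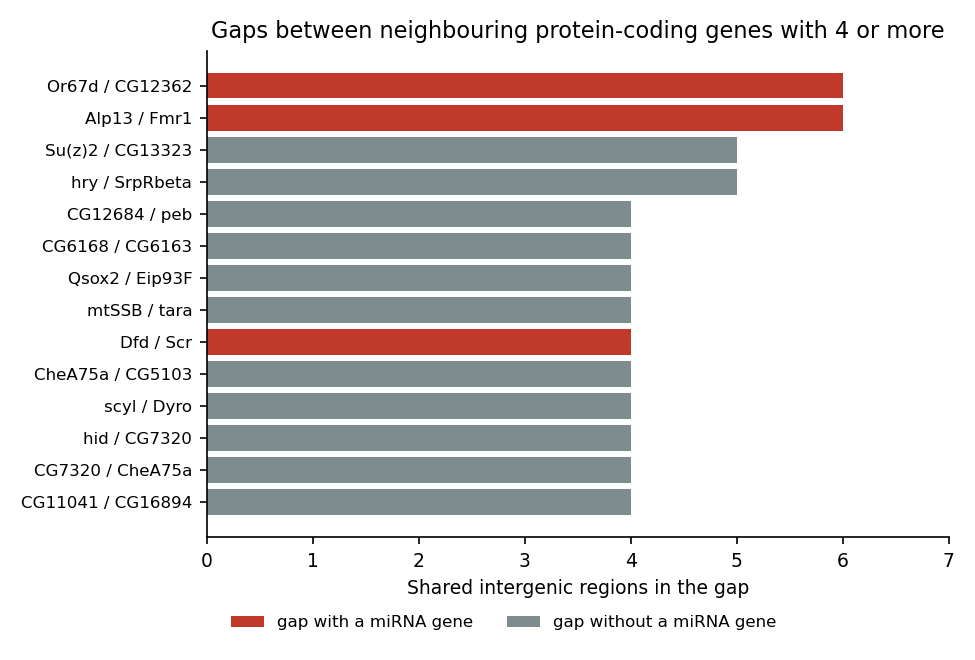
Number of shared intergenic regions (x axis) in 14 gaps between neighbouring protein-coding genes that held 4 or more, with the flanking genes as row names. Red bars are gaps with a miRNA gene. The Or67d and Alp13 gaps hold 6 each, and 3 of the 14 gaps shown contain a miRNA gene.

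Transcription factor genes were a frequent neighbour. Of 262 transcription factor genes listed, 44 were the nearest gene of 59 regions (15.1%), against 84 of the 1002 regions called less widely (8.38%). Counting both flanking genes, the shares were 22.3% and 15.3%. The Hox list was nearest to 5 regions, progenitor genes to 5, signalling ligands and receptors to 10, and enterocyte or gut-region genes to 8. Of the 1002 regions called less widely, the Hox list was nearest to 4 (0.399%, against 1.28%), progenitor genes to 9 (0.898%, against 1.28%), ligands and receptors to 19 (1.90%, against 2.56%) and enterocyte or gut-region genes to 13 (1.30%, against 2.05%). The hemocyte (blood cell) list was nearest to 2 of the 391 (0.512%) and 1 of the 1002 (0.0998%), and flanked 4 and 1. Genes of visceral muscle, fat body and enteroendocrine cells were nearest to 0 of the 391, and to 1, 1 and 2 of the 1002. Neuronal genes were nearest to 0 in both sets.

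Progenitor genes among these included klu (klumpfuss), a zinc-finger factor of enteroblasts, with a region 1124 bp away at chr3L:11010312-11010894. Its percentiles were 99.0, 98.0 and 91.0 in H1 RNAi samples and 88.9, 95.5 and 88.7 in controls, and the groups overlapped. A region at chr3R:19334939-19335741 lay 8722 bp from Delta, the Notch ligand of stem cells, with 80.6, 92.0 and 89.9 in H1 RNAi samples and 99.0, 97.6 and 97.3 in controls. Every H1 RNAi sample was below every control there, at a limma adjusted p of 0.0956. Of 2 regions between mIF2 and fkh, a forkhead factor, the stronger had 74.1, 70.0 and 77.5 in H1 RNAi samples and 88.2, 80.2 and 88.1 in controls (limma adjusted p 0.307). On the other side of fkh, chr3R:28590248-28590710 was weaker, with a lowest percentile of 8.24.

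Regions beside the cytokine genes of the JAK/STAT pathway ranged from strong to weak. The one 3192 bp from upd1, which lay nearer CG6023 on its other side, had 93.7, 98.0 and 97.0 in H1 RNAi samples and 88.5, 96.9 and 98.4 in controls. At chrX:18253310-18254113, in the gap beside upd2 but nearer CG15059, the percentiles were 90.8, 86.5 and 97.2 in H1 RNAi samples and 98.6, 97.7 and 98.9 in controls (limma adjusted p 0.175). The groups overlapped at the region beside upd1 and were apart at this one. The 3 regions of the upd2 gap had lowest percentiles from 36.4 to 86.5. Those of the 2 regions between upd3 and upd1 were 34.9 and 5.30, and that of the 1 between CG15059 and upd3 was 39.5. Between the GATA factor genes srp and GATAe, of which GATAe acts in the midgut endoderm, lay 2 regions in lncRNA:CR42839, with lowest percentiles of 48.7 and 40.7.

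Against other shared regions, the intergenic ones ranked by q between the ends and the interiors of genes and were the narrowest. Their median percentile in a list was 48.4 to 57.2, against 54.7 to 58.7 for the 1664 regions inside genes and 41.0 to 46.8 for the 2192 within 500 bp of a gene end. The difference in median was 7.97 ± 4.85 percentile points from gene ends and −4.33 ± 3.14 from gene interiors (SD over the 6 lists), with the same sign in 6 of 6 lists each time. The exact two-sided sign-flip test over the 6 lists gave p = 0.03125 for both, the smallest it can give, and the same after Benjamini-Hochberg adjustment over 4 tests. Ranked by the authors' fold instead of q, the difference was −1.07 from gene ends (exact p 0.594) and −0.235 from gene interiors (exact p 0.906). Kept to peaks with a −log10 q of 10 or more, the difference from gene interiors turned to 2.04 (exact p 0.156), and kept to peaks of 4-fold or more to 5.21 (exact p 0.0625). Counting genes of every type as genes, the difference from gene ends was 2.81 (exact p 0.281).

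In each list the peaks of intergenic regions were narrower by 135 ± 77.1 bp than those at gene ends and by 60.7 ± 31.6 bp than those inside genes (SD, 6 lists, 6 of 6 each, exact sign-flip p = 0.03125). The choice favours narrow regions, since a wide interval more easily reaches within 500 bp of a gene. With distance taken from the summits in place of the interval, the differences were −116 bp and −43.8 bp, at the same p. The gene end and gene interior classes were still set by the whole interval there. Width thus still entered the choice, and this setting cannot remove its part. The strongest of all were not rarer among them. A lowest percentile of 90 or more was reached by 20 of 391 (5.12%), by 72 of 1664 inside genes (4.33%) and by 65 of 2192 at gene ends (2.97%). At the low end, 105 (26.9%) had a lowest percentile under 10, against 21.5% inside genes and 29.6% at gene ends.

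**Figure D4:**
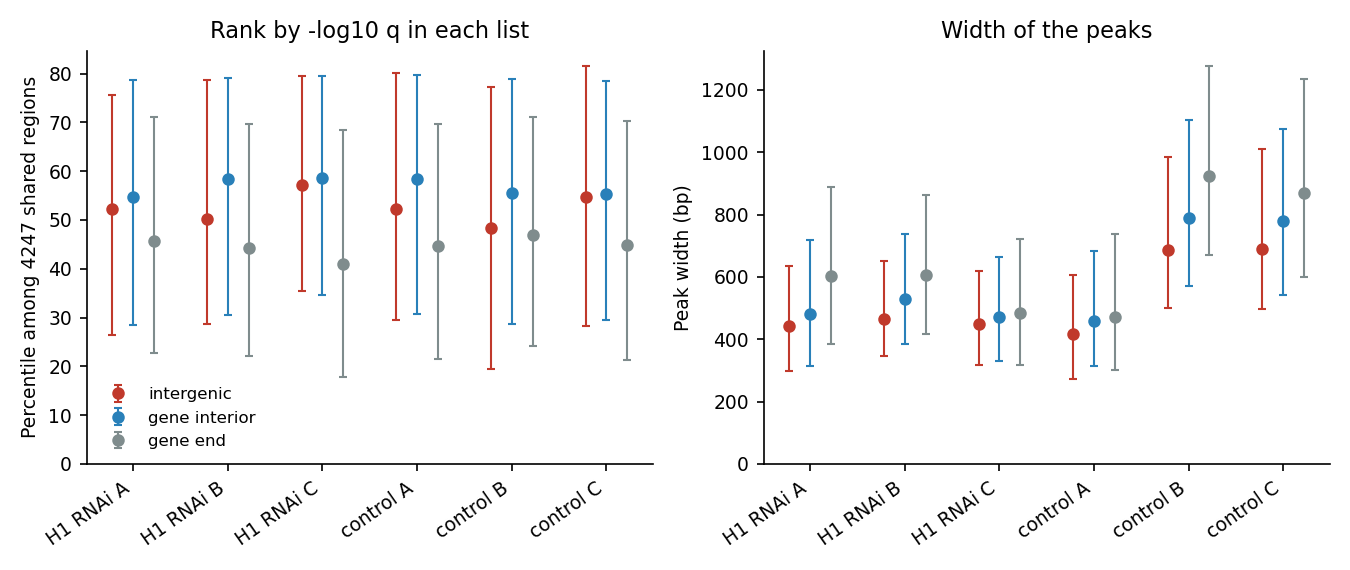
Median percentile by −log10 q (left) and median peak width in bp (right) of shared regions in each of the 6 lists, for the 391 intergenic, 1664 gene interior and 2192 gene end regions; bars span the quartiles. Intergenic regions lie above gene ends and below gene interiors in rank in every list and are the narrowest in each.

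As a group, the intergenic regions did not move in rank between H1 RNAi and control beyond the spread of the samples. Their median percentile was 53.2 ± 3.55 in H1 RNAi samples and 51.8 ± 3.17 in controls (SD, n = 3 each), a difference of 1.44 with an exact permutation p of 0.7. Its direction turned under 4 other settings, among them peaks of 4-fold or more, where it was −7.34 at an exact p of 0.1. The smallest p that 3 against 3 samples allow is 0.1, so this does not show that the groups are equal. The median peak width was 452 ± 12.9 bp in H1 RNAi samples and 597 ± 155 bp in controls (exact permutation p 0.4). Width moved alike in other shared regions, by −183 bp inside genes and −190 bp at gene ends. The widest peaks were those of controls B and C, which also had the highest backgrounds, 20.7 and 10.1 fragments per base, and the part of background in the widths was not tested.

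Among single regions, 1 of 391 (0.256%) ranked higher in H1 RNAi samples at a limma adjusted p under 0.05, against 0.518% of all 4247 shared regions, and 0 ranked lower, against 0.0942%. At an unadjusted p under 0.05 there were 90 (23.0%), against 21.6% of all. The region that rose was chr2L:1972708-1972988, 281 bp wide, between erm (earmuff), a zinc-finger factor of neural progenitors 2346 bp away, and Der-1, a derlin of protein quality control in the endoplasmic reticulum 969 bp away. Its percentiles were 74.7, 69.0 and 76.9 in H1 RNAi samples and 29.0, 15.8 and 11.8 in controls. The difference was 1.55 ± 0.25 (SE) on the normal-score scale, which turns ranks into values of a standard normal distribution, at an adjusted p of 0.0377. This call was lost in the fit with the replicate letter as a block and on leaving out H1 RNAi A, B or C or control B.

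Regions whose groups did not overlap were about as frequent as in the background. All H1 RNAi samples lay above all controls at 60 regions (15.3%, against 14.7% of all shared regions) and below them at 57 (14.6%, against 13.0%). The median difference was −0.01 on the normal-score scale, against −0.04 over all. The largest difference upward, 1.82 ± 0.35 (SE), was at chr3R:30270773-30271417, 6515 bp from heca (headcase), with 43.6, 63.3 and 42.6 in H1 RNAi samples and 1.55, 1.04 and 16.3 in controls (adjusted p 0.054). Beside sens-2, a zinc-finger gene, chr2L:6817392-6817876 had 96.2, 96.5 and 88.1 in H1 RNAi samples and 32.4, 60.9 and 76.9 in controls (adjusted p 0.067). Both were apart by group, without passing the threshold.

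Downward, the largest difference with groups apart was −1.12 ± 0.23 (SE) at chr3R:21940526-21941866, 7248 bp from Eip93F, an ecdysone-induced factor. It had 68.6, 79.7 and 81.6 in H1 RNAi samples and 97.0, 96.7 and 96.8 in controls (adjusted p 0.0571). At chr3L:12984392-12985061, 10074 bp from CG11262, the percentiles were 72.5, 68.8 and 83.7 in H1 RNAi samples and 98.1, 95.2 and 94.8 in controls (adjusted p 0.0635). A larger fitted difference, −1.60 ± 0.49, 1223 bp from Eaat2, an amino acid transporter, came with overlapping groups: 4.21, 0.165 and 9.28 in H1 RNAi samples and 46.6, 8.10 and 60.8 in controls. In percentiles that region varied more within the controls (SD 27.3, against 4.57 in H1 RNAi samples). The fitted difference is on the normal-score scale, which spreads low ranks apart, so this does not hold for it.

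In the lncRNA gene let7C, the host of mir-100, let-7 and mir-125, 2 regions differed in opposite directions. At chr2L:18468561-18469065, 2369 bp from mir-100, the percentiles were 60.1, 62.9 and 71.5 in H1 RNAi samples and 2.90, 22.4 and 40.4 in controls. At chr2L:18461318-18461845, 9589 bp from mir-100, they were 10.1, 31.4 and 36.3 in H1 RNAi samples and 78.0, 57.3 and 58.7 in controls. The groups were apart at both, with adjusted p of 0.0944 and 0.0943.

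**Figure D5:**
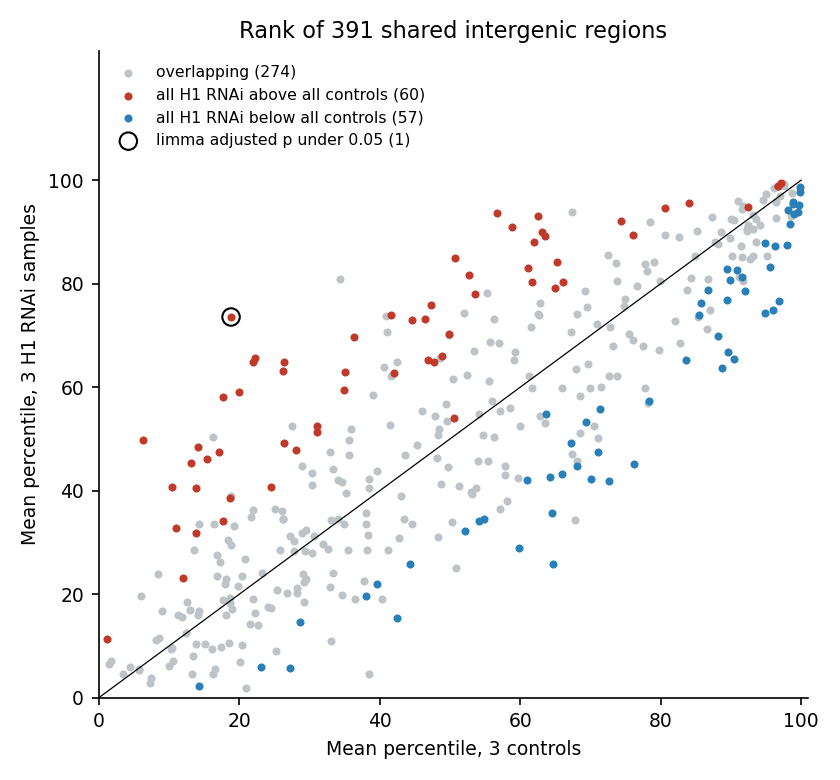
Mean percentile of each of the 391 shared intergenic regions over the 3 H1 RNAi samples (y axis) and over the 3 controls (x axis). Red points (60) have all H1 RNAi samples above all controls, blue points (57) all below, and the circle marks the region between erm and Der-1, the one with a limma adjusted p under 0.05.

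Of the 59 regions nearest a transcription factor gene, every H1 RNAi sample was above every control at 20 (33.9%, against 14.7% of all shared regions) and below at 4 (6.78%, against 13.0%). The median difference was 0.20, against −0.04 over all, and no test was run on this list. Of the 337 other shared regions nearest to or inside such a gene, 95 (28.2%) were above and 26 below, with a median of 0.19. No call at an adjusted p under 0.05 was among the 59. Those above included chr2R:24813723-24813960, 862 bp from Dll (Distal-less), a homeodomain factor of limbs, with 57.3, 55.7 and 61.2 in H1 RNAi samples and 7.39, 23.9 and 21.8 in controls (adjusted p 0.0635). At 238 bp it was the narrowest of all 391. Near Hmx, another homeobox gene, chr3R:17557379-17557917 had 48.3, 37.5 and 50.6 in H1 RNAi samples and 10.2, 12.4 and 16.9 in controls (adjusted p 0.0635); this one was picked after its values were seen.

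Regions over tRNA genes leaned the other way. Of 17, 14 had a lower average score in H1 RNAi samples, with 5 (29.4%) wholly below the controls and 0 above, and a median difference of −0.27. Of all 4247 shared regions, 2253 were lower on average, 13.0% wholly below and 14.7% wholly above. The 46 other shared regions over a tRNA gene did likewise, with 38 lower and a median of −0.41. One, chr2R:6171354-6171902, lay over tRNA:Arg-ACG-1-4 and tRNA:Lys-CTT-1-5, 1782 bp from Cyp6w1 and 2267 bp from EcR, the ecdysone receptor gene. Its percentiles were 37.0, 48.0 and 40.8 in H1 RNAi samples and 72.0, 76.4 and 69.4 in controls (limma adjusted p 0.0943). At chr2R:17391787-17392846, over tRNA:Ala-TGC-1-1 and tRNA:Ala-TGC-2-1, they were 72.8, 72.6 and 64.6 in H1 RNAi samples and 93.7, 87.6 and 83.1 in controls (adjusted p 0.147). Both had their groups apart. Copies of tRNA genes are near-identical, so reads may have been placed at any copy.

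The regions farthest from genes differed in strength. The farthest, chr3R:11304-11562, lay at the start of the arm's sequence, 555514 bp from Myo81F, and was weak in every list, with 20.2, 1.04 and 37.6 in H1 RNAi samples and 10.2, 3.81 and 4.18 in controls. The next, chrX:23279785-23280426, overlapped rRNA genes, which occur in many near-identical copies, 171454 bp from ATbp. It had 97.4, 54.6 and 90.5 in H1 RNAi samples and 81.2, 4.83 and 16.9 in controls (adjusted p 0.156). The groups overlapped at both, and the second varied widely in each group. The third, chrX:22713775-22714247 in lncRNA:CR44997, was strong throughout, with 88.2, 83.3 and 90.5 in H1 RNAi samples and 97.3, 92.9 and 98.6 in controls.

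The regions on either side of the distance limit varied in strength. Just beyond 500 bp were those 539 bp from soti, 540 bp from CG1142 and 550 bp from CG2955, with lowest percentiles of 5.70, 97.7 and 13.7. Just within it were shared regions 495 bp from slam, 468 bp from Raf and 452 bp from Rh5, with 18.3, 41.9 and 3.16. There were 6 regions more than 500 and up to 600 bp away, and 7 shared regions at 400 to 500 bp.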

How the data were processed

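ATAC-seq peak lists of 3 H1 RNAi and 3 control samples were analysed, grouped by their titles. The tools were MACS2, Bowtie2, Trim Galore and Picard with build dm6, per the submitters' processing notes. Settings and any Tn5 offset of the reads were not given in the sources used here. Each deposited list was called on 1 sample and gives coordinates, an integer score, a fold enrichment (ratio), a −log10 p-value and a −log10 q-value, all the authors' values, used only to rank or filter peaks within a list. Read totals were not used here. The background per base was solved from the deposited fold and −log10 p of each peak, with 99.97 to 100% of peaks giving a whole coverage within 0.02 fragments.

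Gene positions came from the NCBI RefSeq table of the same assembly, with 13842 protein-coding and 3728 non-coding genes on the 5 arms. It gives no strand or exons, and no genome sequence was used here, so no sequence is shown. Regions inside genes and within 500 bp of gene ends served for comparison. Percentiles by −log10 q were taken among the 4247 shared regions. Classes were compared by exact sign-flip tests over the 6 lists, groups by exact permutation, and single regions by limma 3.58.1 (R 4.3.3) on normal scores of the ranks of all 4247, adjusted by Benjamini-Hochberg, at a threshold of 0.05. The code was tested on simulated data.

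Named regions were mainly drawn from the 10 with the highest lowest percentile, the 3 widest, narrowest and farthest, and the 3 on each side of 500 bp. Further sets were the 5 with the largest difference each way, the 6 gene pairs flanking most regions, those over non-coding genes, and up to 4 per gene list. Not every region of these sets is named, and the 3 widest are not. The regions and the 10 gene lists were chosen with earlier results of these data known. The counts around miRNA, tRNA and transcription factor genes were set up after seeing the data. The regions of 1 gap are not reported here as a group.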

Additional observations from a re-analysis of the deposited data

How the results depend on the processing

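The number of shared intergenic regions was 209 where peaks needed −log10 q of 10 or more, and 155 where they needed 4-fold enrichment or more; under the other 6 settings on peaks and genes it was 267 to 439, and without each sample in turn 393 to 443. The rank difference from gene interiors was 2.04 (exact p 0.156) with that q and 5.21 (p 0.0625) with that fold, both turned round, and −3.18 (p 0.0625) with summits clustered within 150 bp; by fold rank it was −0.235. The difference from gene ends was −1.07 by fold rank, turned round, and 2.81 with genes of every type. The width difference from gene interiors was −49.5 bp (p 0.0625) with the fold minimum. Leaving out each sample gave 5.66 to 9.46 and −5.50 to −3.74 percentile points, and −135 to −116 bp and −66.4 to −54.2 bp; with 5 samples the smallest p is 0.0625, and p was above it, at 0.125, for rank against gene ends without H1 RNAi A and against gene interiors without H1 RNAi C. The rank difference between H1 RNAi and control turned round with the q minimum (−0.459), the fold minimum (−7.34, exact p 0.1), without H1 RNAi C (−0.694) and without control B (−0.333), within −0.694 to 3.24 over all samples left out; the cause was not tested. The width difference was −237 to −84.9 bp. The share nearest a transcription factor gene was 10.9% with genes of every type and 22.3% by either flanking gene. The share of miRNA gaps with a region, an alternative added after seeing the data, was 19.6% with the fold minimum. Regions called by limma were 5 higher and 2 lower on the percentile scale, and 0 to 1 higher without a sample. With the replicate letter as a block the calls were 0 and 0, and the exact p was 0.5 for both rank (1.44) and width (−146 bp). Correlations across the groups were −0.07, 0.11 and 0.07 for samples of the same letter and −0.14 to 0.06 for the other pairs. They are not correlations of the percentiles themselves. The letters were not taken to pair samples. The depth behind each rank is known only through the background per base.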
